A study of Mus musculus with 12 samples.

Results

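The genes described here are the 40 mouse genes of an autophagy and mitophagy list, found by gene symbol among the 55487 rows of each expression table. The list was made by name and not by measured level, and it covers the initiation kinase complex (5 genes), the lipid kinase complex (6), membrane supply and lipid transfer (5), the conjugation machinery (10), the ATG8 proteins (5), cargo receptors (4), mitophagy factors (3) and transcriptional regulators (2). The members and this grouping by role were chosen with earlier results of these data known. RNA with poly(A) tails came from G1E-ER4, an erythroid progenitor line of the mouse that has no functional GATA1 of its own and carries a GATA1 protein fused to an estrogen receptor domain, which β-estradiol switches on. All 12 libraries are of this 1 line after 24 h with 100 nM β-estradiol, and all are labelled as differentiating. No library is of cells without β-estradiol, so how far each group had matured was not measured. DTPA cells had 50 µM of the chelator DTPA from the start of differentiation, which the labels describe as low zinc. DFO cells had 50 µM of the chelator DFO, described as low iron. SA cells had 0.2 mM SA, described as low protoporphyrin through inhibition of ALAD, an enzyme of heme synthesis, and Control cells were differentiated with none of these. Each group has 3 libraries labelled as biological replicates, and p-values reflect only how much those differ. The treatment protocol names DFO also for the ALAD group, whereas the titles and treatment tags name SA; the titles were followed.

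In autophagy a double membrane closes around cytoplasm or organelles and delivers them to the lysosome. A kinase complex around ULK1 starts the process, a lipid kinase complex with Beclin 1 marks the forming membrane, ATG2 proteins carry lipids into it, and ubiquitin-like conjugation attaches ATG8 proteins (the LC3 and GABARAP families) to it, where cargo receptors bind. Maturing red cells use this route to remove their mitochondria, with the receptor NIX, encoded by Bnip3l, as the best known factor. GATA1 and FOXO3 are known to activate many autophagy genes during erythroid maturation.

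The expression values are in TPM, read counts scaled for transcript length and for the library's total, and reads recovered from them came to between 19860145 and 24329311 per library. All 13 erythroid markers checked were above the test's minimum level of 1 TPM in at least 3 libraries. By limma at an adjusted p of at most 0.05, DTPA raised 2 and lowered 10 of them, DFO raised 1 and lowered 7, and SA raised none and lowered 8. After each library was rescaled by the median of its gene ratios, the counts were 3 and 8, 1 and 8, and 0 and 10. Gata1 is 1 of these markers, and its reads can come from the introduced fusion as well as from the cells' own gene. Over all tested genes, 23.5% were higher and 42.1% lower with DTPA, 8.39% higher and 2.28% lower with DFO, and 15.4% higher and 6.75% lower with SA. The summed level of these markers was 42469 to 44205 TPM in DTPA libraries, 29084 to 31020 TPM in DFO libraries, 23818 to 24407 TPM in SA libraries and 38419 to 41578 TPM in Control libraries. Most of that sum was the globin genes Hba-a1 and Hbb-bs; without them it was 7109 to 7167 TPM in DTPA libraries, 8850 to 8968 TPM in DFO libraries, 8151 to 8289 TPM in SA libraries and 9042 to 9395 TPM in Control libraries. Slc4a1, the red cell anion exchanger, averaged 45.5 ± 3.32 TPM in DTPA libraries, 461 ± 12.5 TPM in DFO libraries, 520.5 ± 1.14 TPM in SA libraries and 718 ± 33.4 TPM in Control libraries (SD, n = 3). This was the steepest fall of the 13 markers with DTPA, and some markers went the other way. Alas2 averaged 3002 ± 10.3 TPM in DTPA libraries and 2268 ± 17.9 TPM in Control libraries. Hbb-bs averaged 26214 ± 1077 TPM in DTPA libraries and 19234 ± 1307 TPM in Control libraries. Hba-a1 and Hbb-bs together summed to 35360.5 to 37037 TPM in DTPA libraries and 29024 to 32536 TPM in Control libraries. Of 9 megakaryocyte markers, 3 were at 0 everywhere, 4 were tested and 3 of those rose with DTPA, and the list summed to 36.5 to 45.8 TPM in DTPA libraries, 10.3 to 10.9 TPM in DFO libraries, 8.27 to 9.87 TPM in SA libraries and 8.23 to 9.34 TPM in Control libraries. The 11 mast and myeloid markers (6 at 0 everywhere) summed to 1.98 to 2.60 TPM in DTPA libraries and 1.83 to 2.76 TPM in Control libraries. The 8 lymphoid markers (5 at 0 everywhere) summed to 1.37 to 2.04 TPM in DTPA libraries and 0.361 to 0.757 TPM in Control libraries. The part of these shifts in the results below was not tested, and in bulk RNA fewer cells of a type and less RNA per cell cannot be told apart.

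In Control cells the members spanned a wide range of levels on the TPM scale, which is per transcript length. Gabarap, an ATG8 protein gene, was highest at 1705 ± 33.6 TPM (SD, n = 3), followed by Bnip3l at 596 ± 12.5 TPM, Gabarapl1 at 403 ± 17.0 TPM, Sqstm1 at 312 ± 4.51 TPM and Foxo3 at 232 ± 6.61 TPM. The ranges of these 5 genes did not overlap. In all, 12 members averaged over 100 TPM, 25 lay between 10 and 100 TPM, Atg7 and Tfeb lay between 1 and 10 TPM, and Atg4c was at 0 in all 12 libraries. A count of 3 reads on Atg4c would have given 0.111 to 0.143 TPM, depending on the library. Fewer reads would still have shown as a value above 0, but a true level below that range could have gone unseen. Of the 39 pairs of neighbours in this order of Control levels, 16 had overlapping ranges, among them Nbr1, Optn and Map1lc3b near 190 TPM and the run of Atg4d, Atg12, Atg3, Atg2a and Atg2b near 70 TPM. Atg4c did not reach the minimum level, and the other 39 members were tested.

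DTPA changed most members, in both directions, while DFO and SA changed few and by less. A gene was called where the adjusted p of limma, over all 11917 tested genes, was at most 0.05. With DTPA, 28 of 39 members were called, 18 higher and 10 lower, against 65.5% of all tested genes (23.5% higher and 42.1% lower), and the ranges of the 3 libraries per group were apart for 28 members, against 69.6% of all tested genes. DFO moved 6 of 39 members, 4 higher and 2 lower, against 10.7% of all tested genes (8.39% higher and 2.28% lower). SA moved 9 of 39, 7 higher and 2 lower, against 22.2% of all tested genes (15.4% higher and 6.75% lower). Ranges were apart for 15 members with DFO and 17 with SA, against 30.2% and 38.5% of all tested genes. The shares of members called (71.8% with DTPA, 15.4% with DFO and 23.1% with SA) were near those of all tested genes, and the 3 comparisons share the Control libraries. The largest differences were log2 1.02 higher (Atg2a) and 0.54 lower (Atg3) with DTPA, within 0.18 with DFO, and within 0.31 with SA; all fold changes are on the log2(TPM + 1) scale.

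The split between higher and lower depended on the scale. The median over all tested genes was -0.11 in DTPA minus Control, 0.045 in DFO minus Control and 0.047 in SA minus Control on log2(TPM + 1), against member medians of 0.014, 0.034 and 0.024. Rescaling each library by the median of its gene ratios shifted the median of all genes by 0.13, -0.053 and -0.055 in these comparisons. After rescaling, DTPA had 24 members higher and 7 lower (3842 and 3859 of all tested genes), DFO had 2 higher and 6 lower (423 and 646), and SA had 3 higher and 9 lower (1124 and 1624). Directions of called differences given below held under this rescaling unless it is said that they did not. Small differences that were not called could change sign. After rescaling Ulk1 was at -0.0025 with DFO and -0.029 with SA, and Atg3 was at -0.021 with DFO.

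**Figure D1:**
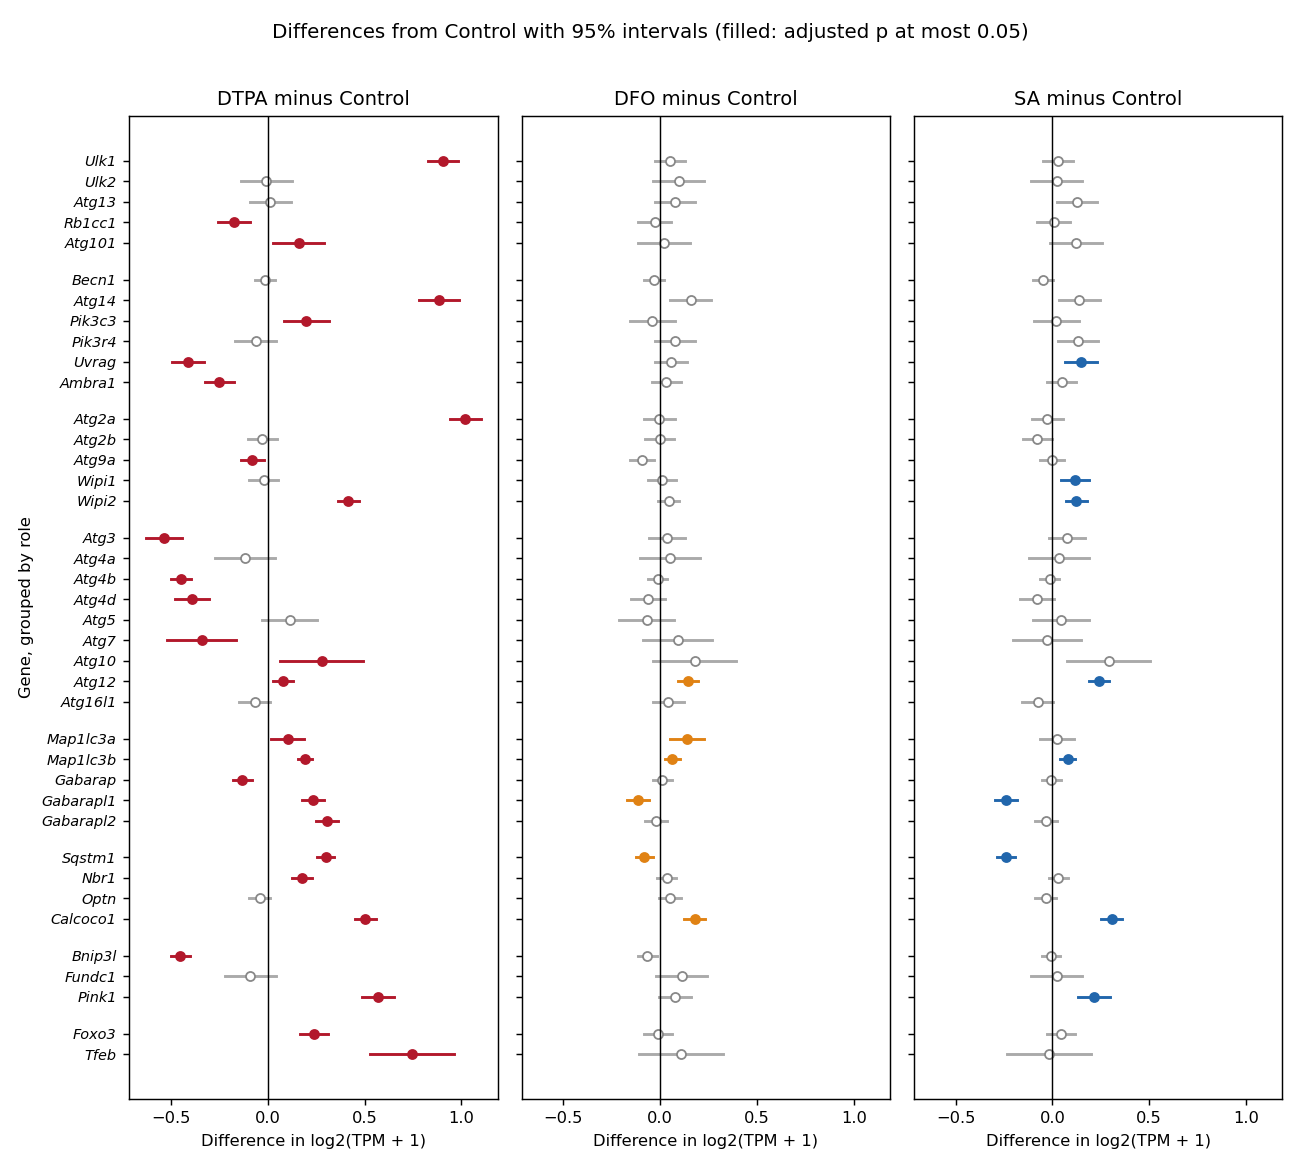
Differences between each treatment and Control in log2(TPM + 1) for the 39 tested members, grouped by role, with 95% intervals from the fit over 3 libraries per group; filled points passed the adjusted p of 0.05. The DTPA panel holds 28 filled points between -0.54 and 1.02, and the DFO and SA panels hold 6 and 9 filled points nearer to 0.

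The start regions of 4 members are shown because Ulk1, Atg2a and Atg14 had the largest rises and Atg3 the largest fall with DTPA. Each is 300 bases of the RefSeq gene start on build GRCm38.p6 (250 before the start and 50 after it), written 5′ to 3′ on the gene's strand. The windows are chr5:110810032-110810331 on the minus strand for Ulk1, chr19:6241418-6241717 on the plus strand for Atg2a, chr14:47568385-47568684 on the minus strand for Atg14 and chr16:45158579-45158878 on the plus strand for Atg3. Capitals mark the E-box CACGTG, the core of the element that TFEB and related factors bind.
Ulk1: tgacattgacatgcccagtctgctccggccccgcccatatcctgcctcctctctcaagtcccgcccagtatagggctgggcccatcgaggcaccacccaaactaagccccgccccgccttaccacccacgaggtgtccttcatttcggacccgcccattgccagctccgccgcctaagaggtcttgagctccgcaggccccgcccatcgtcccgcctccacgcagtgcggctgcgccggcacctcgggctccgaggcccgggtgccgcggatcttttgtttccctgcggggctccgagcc
Atg2a: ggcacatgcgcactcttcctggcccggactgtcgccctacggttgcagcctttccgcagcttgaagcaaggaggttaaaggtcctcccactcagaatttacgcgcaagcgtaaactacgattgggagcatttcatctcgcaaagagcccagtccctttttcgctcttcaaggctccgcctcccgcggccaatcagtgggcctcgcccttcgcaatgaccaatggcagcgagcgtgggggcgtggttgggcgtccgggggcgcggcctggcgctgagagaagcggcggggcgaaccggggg
Atg14: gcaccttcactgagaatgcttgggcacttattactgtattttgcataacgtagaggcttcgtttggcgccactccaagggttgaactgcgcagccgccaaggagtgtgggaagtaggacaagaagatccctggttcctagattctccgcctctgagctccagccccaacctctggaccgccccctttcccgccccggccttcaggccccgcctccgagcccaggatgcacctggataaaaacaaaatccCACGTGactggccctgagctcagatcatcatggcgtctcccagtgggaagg
Atg3: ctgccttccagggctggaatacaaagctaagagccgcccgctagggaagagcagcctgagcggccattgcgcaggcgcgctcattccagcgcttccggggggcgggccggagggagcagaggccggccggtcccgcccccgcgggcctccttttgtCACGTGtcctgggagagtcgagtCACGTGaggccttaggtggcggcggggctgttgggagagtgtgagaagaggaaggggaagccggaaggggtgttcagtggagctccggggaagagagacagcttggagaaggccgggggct
The E-box was searched on both strands together with the FOXO core GTAAACA, the GATA site AGATAA and the C/EBP-ATF element TGATGNAA, and the motifs do not overlap in these windows. Atg14, higher with DTPA, holds 1 E-box that begins 1 base before the start, and Atg3, lower with DTPA, holds 2 E-boxes that begin 94 and 71 bases before it. The Ulk1 and Atg2a windows hold none of the 4 motifs. RefSeq start regions were at hand for 33 members (38 windows). An E-box was present in 4 windows, those of Atg14, Atg3, Atg5 and Atg7, which is 10.5% of the 38, against 10.7% of the windows of all tested genes and 7.17% of all 32544 windows. The GATA site was in 2 windows (Atg4a and Atg4d, 5.26%, against 6.4% for tested genes and 11.2% for all). No member window held the FOXO core or the C/EBP-ATF element, which 2.54% and 2.1% of the windows of tested genes and 3.66% and 3.91% of all windows hold. A match is only a run of letters, and none of these libraries measured binding.

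In the initiation kinase complex, DTPA raised the transcript of its catalytic kinase and left its paralog near Control. Ulk1, the kinase that starts autophagy, had 74.1, 72.3 and 70.2 TPM in DTPA libraries, 38.8, 39.5 and 40.4 TPM in DFO libraries, 38.9, 39.2 and 38.6 TPM in SA libraries, and 36.6, 37.7 and 40.2 TPM in Control libraries. Every DTPA library lay above every other library, and the DFO and SA libraries overlapped Control. The log2 fold change was 0.90 ± 0.036 (SE; limma adjusted p = 8.03e-10) with DTPA, and it was 0.052 (95% interval -0.027 to 0.13) with DFO and 0.028 (-0.051 to 0.11) with SA. Ulk2, the related kinase, averaged 10.2 ± 0.238 TPM in DTPA libraries and 10.3 ± 0.738 TPM in Control libraries and was not called. The ratio of Ulk1 to Ulk2 TPM within a library, which no scaling can move, was 6.69 to 7.28 in DTPA libraries, 3.37 to 3.86 in DFO libraries, 3.497 to 3.91 in SA libraries and 3.28 to 4.13 in Control libraries. Of the kinase's partners, Atg101 was higher with DTPA (0.16) and Rb1cc1, the scaffold FIP200, was lower (-0.17). The Rb1cc1 call was lost after rescaling (-0.044), and Atg101 lost its call when DTPA replicate 1 or 3 or any single Control library was left out (limma adjusted p up to 0.107). Atg13 was not called with DTPA on the deposited scale and was called higher after rescaling (0.14). So 3 of the 5 genes were higher and none lower after rescaling, against 2 higher and 1 lower as deposited. All tested genes had 3842 higher and 3859 lower of 11917 after rescaling, and 23.5% higher and 42.1% lower as deposited. No gene of this complex was called with DFO or SA, against 10.7% and 22.2% of all tested genes.

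In the lipid kinase complex the subunits that specify its alternative forms moved in opposite directions with DTPA. Atg14, the subunit that directs the kinase to autophagy, had 50.8, 47.2 and 51.1 TPM in DTPA libraries, 28.7, 29.3 and 31.0 TPM in DFO libraries, 30.2, 29.6 and 28.0 TPM in SA libraries, and 27.6, 25.1 and 26.7 TPM in Control libraries. DTPA libraries lay far above the rest, and the DFO and SA libraries lay slightly above all Control libraries. Its log2 fold change was 0.88 ± 0.047 (SE; limma adjusted p = 1.18e-08) with DTPA, and 0.16 and 0.14 with DFO and SA, which missed the threshold (limma adjusted p = 0.0577 and 0.0585). Uvrag, the subunit of the alternative complex that acts in endosome and autophagosome maturation, averaged 20.9 ± 0.278 TPM in DTPA libraries and 28.1 ± 0.736 TPM in Control libraries, a log2 fold change of -0.41. With SA it averaged 31.3 ± 0.807 TPM and was called higher (0.15), a call that rescaling removed (0.091, limma adjusted p = 0.0622) and that was also lost without SA replicate 3 or Control replicate 2. The ratio of Atg14 to Uvrag was 2.24 to 2.47 in DTPA libraries, 0.948 to 1.11 in DFO libraries, 0.873 to 0.989 in SA libraries and 0.918 to 0.976 in Control libraries. Pik3c3, the catalytic lipid kinase, was higher with DTPA (0.20) and Ambra1, a regulator of Beclin 1, was lower (-0.25). Becn1, which encodes Beclin 1, averaged 77.1 ± 0.937 TPM in DTPA libraries and 77.9 ± 1.75 TPM in Control libraries and was not called in any treatment as deposited, whereas after rescaling it was higher with DTPA (0.12) and lower with DFO (-0.087) and SA (-0.11). Pik3r4, the regulatory subunit, was not called in any treatment on either scale. Becn1 shares 43.9% of its exon bases with Cntd1 on the other strand, which stayed under 1 TPM; the sources used here do not give the strand setting of the counting.

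The largest rise of any member was in lipid transfer. Atg2a, which encodes a bridge for lipids between the endoplasmic reticulum and the forming membrane, had 142, 148 and 138 TPM in DTPA libraries, 70.5, 66.0 and 72.6 TPM in DFO libraries, 67.0, 69.4 and 69.3 TPM in SA libraries, and 68.4, 70.7 and 70.7 TPM in Control libraries. The DTPA libraries stood apart above all others, whose ranges overlapped. The log2 fold change with DTPA was 1.02 ± 0.037 (SE; limma adjusted p = 3.74e-10), a 2.04-fold ratio of means, and it was -0.0046 (95% interval -0.086 to 0.076) with DFO and -0.027 (-0.11 to 0.054) with SA. Its paralog Atg2b was not called with DTPA on the deposited scale (66.7 ± 0.442 TPM in DTPA libraries and 68.1 ± 3.00 TPM in Control libraries) and rose by log2 0.10 after rescaling. The ratio of Atg2a to Atg2b was 2.09 to 2.22 in DTPA libraries, 1.00 to 1.07 in DFO libraries, 1.04 to 1.10 in SA libraries and 0.994 to 1.09 in Control libraries. Wipi2, which binds the lipid mark and recruits the conjugation machinery, was higher with DTPA (60.2 ± 1.36 TPM, against 44.9 ± 0.777 TPM in Control libraries; log2 0.41). Wipi1, a relative of it, was not called with DTPA as deposited and was higher after rescaling (0.11). With SA both Wipi2 (0.12) and Wipi1 (0.11) were called higher, and both calls were lost after rescaling (0.066 and 0.057); the Wipi1 call was also lost without SA replicate 1 or 2 or Control replicate 2 or 3 (limma adjusted p up to 0.109). Atg9a, a membrane protein on the vesicles that seed the structure, was lower with DTPA by 0.079 as deposited, higher by 0.053 and not called after rescaling, and lost its call when DTPA replicate 1 or 3 or any single Control library was left out (limma adjusted p up to 0.0924). Atg9a shares 31.8% of its exon bases with Gm29253 on the same strand. Gm29253 averaged 0.018 ± 0.031 TPM in DTPA libraries and 0.018 ± 0.016 TPM in Control libraries. As deposited, 2 of the 5 genes of this role were higher and 1 lower with DTPA, against 23.5% and 42.1% of all tested genes. After rescaling 4 were higher and none lower, against 3842 and 3859 of all 11917 tested genes.

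Within the conjugation machinery, 4 of 9 tested genes fell with DTPA, among them enzymes that process and attach ATG8 proteins, and 2 rose. As deposited these shares were near the 42.1% lower and 23.5% higher of all tested genes. After rescaling the counts were 4 lower and 3 higher, against 3859 lower and 3842 higher of all 11917 tested genes. Atg3, the enzyme that transfers ATG8 proteins to lipid, had 47.5, 48.1 and 48.2 TPM in DTPA libraries, 72.6, 69.1 and 73.3 TPM in DFO libraries, 74.5, 77.0 and 69.5 TPM in SA libraries, and 73.5, 67.3 and 69.2 TPM in Control libraries. All DTPA libraries were below all others, and DFO and SA libraries overlapped Control. The log2 fold change was -0.54 ± 0.042 (SE; limma adjusted p = 3.51e-07) with DTPA, 0.034 (95% interval -0.059 to 0.13) with DFO and 0.073 (-0.019 to 0.17) with SA. Atg4b, the protease that trims ATG8 precursors, averaged 153 ± 3.75 TPM in DTPA libraries and 209 ± 4.35 TPM in Control libraries (log2 -0.45). Its relative Atg4d fell by 0.39 and Atg7, the activating enzyme of both conjugation pathways, fell by 0.34. Atg4d shares 19.3% of its exon bases with Kri1 on the other strand, and Kri1 averaged 119 ± 2.03 TPM in DTPA libraries and 122 ± 2.09 TPM in Control libraries. Atg10, the enzyme that joins ATG12 to ATG5, was called higher with DTPA (0.28), with overlapping ranges, and lost the call in the fit of only the 6 libraries compared and without DTPA replicate 2 or 3 or Control replicate 2 (limma adjusted p up to 0.106). Atg5, the acceptor of ATG12, was called higher only after rescaling (0.24), and Atg4a and Atg16l1 were not called on either scale with DTPA. Atg12, the ubiquitin-like protein of the second pathway, was the 1 gene of this machinery called with DFO or SA as deposited. That is 11.1% of its tested genes in each comparison, against 10.7% of all tested genes with DFO and 22.2% with SA. After rescaling Atg4b was also lower with both (-0.069 and -0.073), and Atg4d and Atg16l1 were lower with SA (-0.14 and -0.13). All 11917 tested genes then had 423 higher and 646 lower with DFO, and 1124 higher and 1624 lower with SA. Atg12 averaged 74.3 ± 1.47 TPM in DTPA libraries, 78.0 ± 0.790 TPM in DFO libraries, 83.3 ± 1.10 TPM in SA libraries and 70.4 ± 1.28 TPM in Control libraries. Its log2 fold changes were 0.077, 0.15 and 0.24 (limma adjusted p = 0.0121, 0.00282 and 3.10e-05), and its DTPA, DFO and SA ranges each lay above the Control range. The order of the treatments depended on the scale: after rescaling the values were 0.21 with DTPA, 0.091 with DFO and 0.18 with SA, all still called higher.

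**Figure D2:**
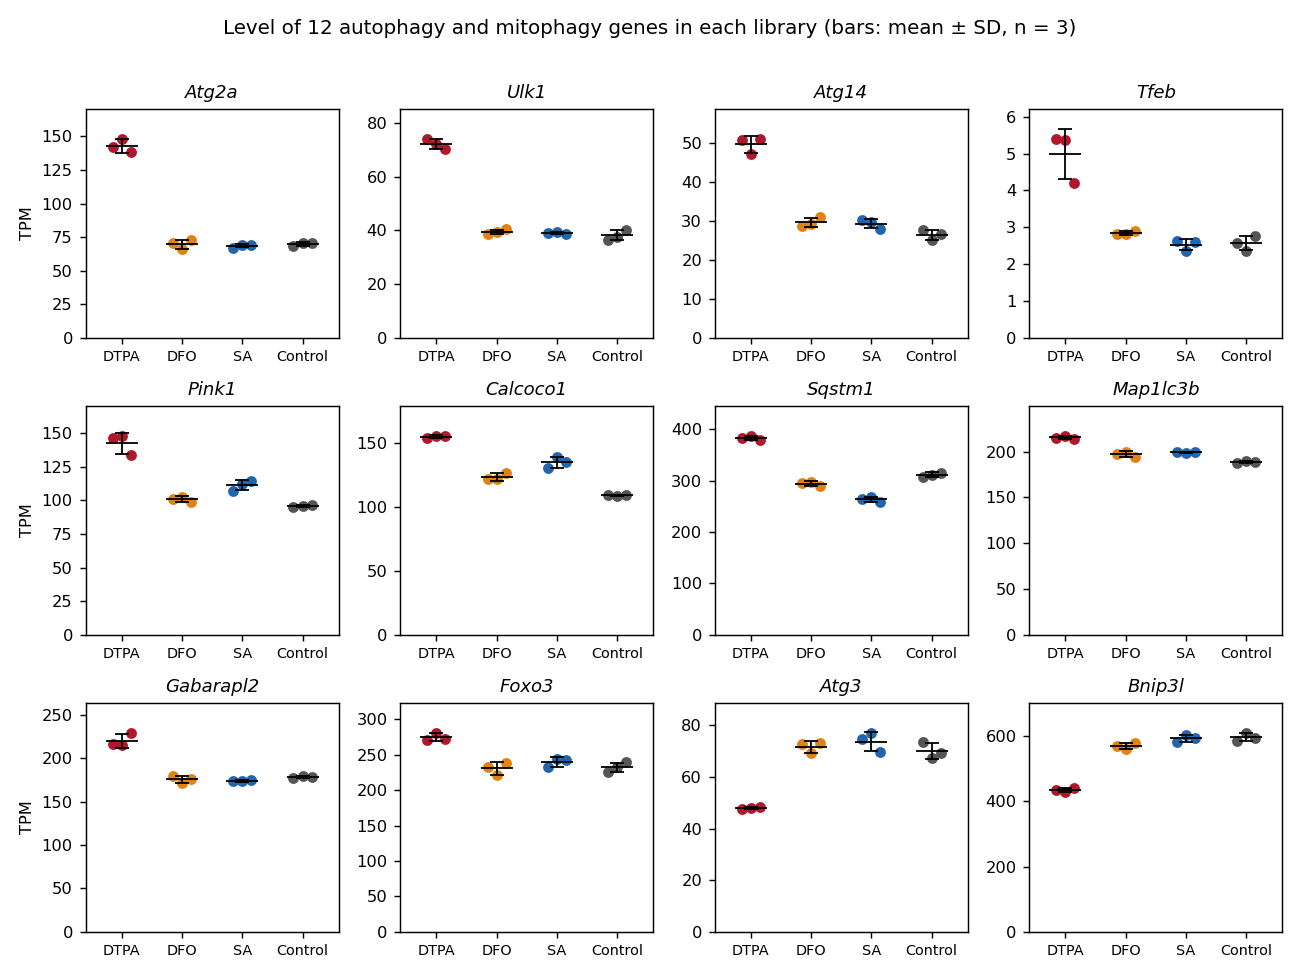
Level in TPM of 12 members in each of 12 libraries by group, with the group mean and SD (n = 3); each axis starts at 0. Atg2a, Ulk1, Atg14, Tfeb, Pink1 and Calcoco1 lie above the other libraries in all 3 DTPA libraries, Atg3 and Bnip3l lie below them, and Sqstm1 is above Control with DTPA and below it with DFO and SA.

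As deposited, the summed level of the ATG8 genes differed by less than 1 SD between DTPA and Control libraries, while its make-up shifted. The summed level was 2524 ± 28.1 TPM in DTPA libraries, 2522 ± 39.9 TPM in DFO libraries, 2468 ± 17.9 TPM in SA libraries and 2529 ± 42.1 TPM in Control libraries. The sum depended on the scale: after rescaling it was 2759 ± 44.5 in DTPA libraries, 2419 ± 57.3 in DFO libraries, 2362 ± 31.2 in SA libraries and 2520.1 ± 14.2 in Control libraries, which put DTPA 9.47% above Control. With DTPA, 4 of the 5 genes rose and Gabarap fell by 0.13, a fall that became a difference of 0.0015 after rescaling. The background with DTPA was 23.5% higher and 42.1% lower as deposited, and 3842 and 3859 of 11917 tested genes after rescaling. Map1lc3b is the LC3 gene whose protein serves as the standard autophagosome marker, and its RNA level does not measure autophagosomes. It had 215, 217 and 214 TPM in DTPA libraries, 198, 200.0 and 194 TPM in DFO libraries, 200.0, 199 and 199 TPM in SA libraries, and 187, 190.0 and 189 TPM in Control libraries. Each treated group lay above the Control range, with DTPA highest. Its log2 fold change was 0.19 ± 0.017 (SE; limma adjusted p = 9.65e-07) with DTPA, and the smaller differences with DFO (0.064) and SA (0.078) were lost after rescaling (0.0087 and 0.020); the DFO call also fell away without any single library other than DFO replicate 3 (limma adjusted p up to 0.113). Gabarapl2, a GABARAP relative, had 217, 215 and 229.5 TPM in DTPA libraries, 179.7, 172 and 176 TPM in DFO libraries, 174, 174 and 175 TPM in SA libraries, and 177, 179 and 178 TPM in Control libraries. The DTPA libraries were above all others, with a log2 fold change of 0.30 ± 0.025 (SE; limma adjusted p = 6.24e-07); the DFO ranges overlapped Control, and the SA libraries lay just below it without a call as deposited (-0.035) and with one after rescaling (-0.092).

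Gabarapl1, another GABARAP relative that is added here after its values were seen, moved up with DTPA and down with DFO and SA. It had 476, 472 and 474 TPM in DTPA libraries, 371, 373 and 372 TPM in DFO libraries, 339, 339 and 345 TPM in SA libraries, and 422, 399.8 and 388 TPM in Control libraries. The DTPA range was above Control, and the DFO and SA ranges were below it and apart from each other. Its log2 fold change was 0.23 with DTPA, -0.11 with DFO and -0.24 with SA (limma adjusted p = 6.09e-06, 0.0154 and 5.51e-05), and SA minus DFO was -0.13 (limma adjusted p = 0.00738). The DFO call was lost in a fit of only the 6 libraries compared (limma adjusted p = 0.0806). Gabarapl1 shares 28.3% of its exon bases with 1700101I11Rik on the other strand, which averaged 9.34 ± 1.401 TPM in DTPA libraries, 14.8 ± 1.27 TPM in DFO libraries, 15.5 ± 0.141 TPM in SA libraries and 14.4 ± 1.00 TPM in Control libraries. Map1lc3a, a second LC3 gene, was called higher with DTPA (0.10) and DFO (0.14); the DTPA call was lost without DTPA replicate 1 or 2 or Control replicate 1 or 3 (limma adjusted p up to 0.160), and the DFO call was lost after rescaling (0.084) and without any single library other than Control replicate 2.

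As shares of the summed ATG8 level within a library, Gabarap made up 61.5% to 61.9% in DTPA libraries, 67.6% to 68.6% in DFO libraries, 68.4% to 69.1% in SA libraries and 66.9% to 67.9% in Control libraries. Gabarapl1 made up 18.5% to 18.9% in DTPA libraries, 14.6% to 14.9% in DFO libraries, 13.7% to 14.1% in SA libraries and 15.4% to 16.4% in Control libraries. So DTPA libraries had a smaller Gabarap share and a larger Gabarapl1 share than every Control library, and DFO and SA libraries had a smaller Gabarapl1 share than every Control library.

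**Figure D3:**
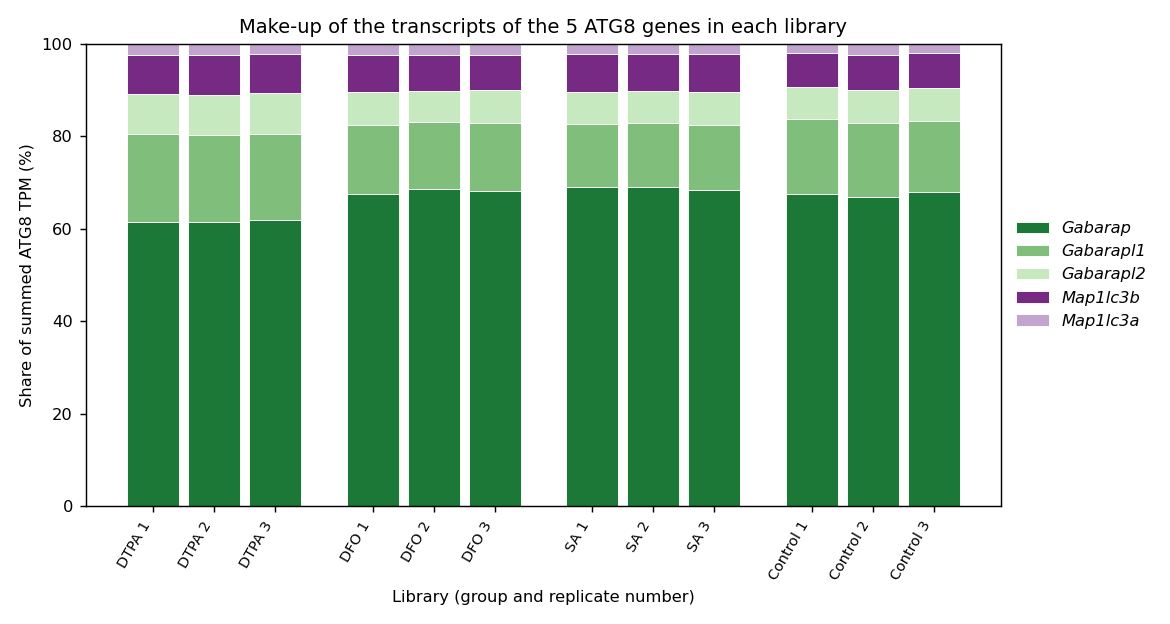
Share of each of the 5 ATG8 genes in their summed TPM, in percent, for each of the 12 libraries. Gabarap takes 61.5% to 61.9% in DTPA libraries and 66.9% to 67.9% in Control libraries, and the Gabarapl1 band is widest in DTPA libraries and narrowest in SA libraries.

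Among cargo receptors, 3 of 4 genes rose with DTPA and none fell, against 23.5% higher and 42.1% lower of all tested genes. Sqstm1 moved the other way with DFO and SA. After rescaling all 4 receptors were higher with DTPA, against 3842 higher and 3859 lower of all 11917 tested genes. Whether this role differed from other genes was not tested. Sqstm1, which encodes p62, the receptor for ubiquitinated cargo, had 384, 388 and 379 TPM in DTPA libraries, 295, 298 and 289.6 TPM in DFO libraries, 265, 268 and 259 TPM in SA libraries, and 307, 312 and 316 TPM in Control libraries. The ranges of all 4 groups were apart, in the order DTPA, Control, DFO, SA. Its log2 fold change was 0.30 ± 0.020 (SE; limma adjusted p = 8.96e-08) with DTPA, -0.082 (limma adjusted p = 0.0246) with DFO and -0.24 (limma adjusted p = 1.02e-05) with SA. The DFO call was lost in the fit of only the 6 libraries compared (limma adjusted p = 0.0690) and without DFO replicate 1 or 3 or Control replicate 2 or 3 (limma adjusted p up to 0.0902). Sqstm1 shares 17.3% of its exon bases with Mrnip on the other strand, and Mrnip averaged 12.8 ± 1.27 TPM in DTPA libraries, 25.0 ± 2.20 TPM in DFO libraries, 29.0 ± 1.21 TPM in SA libraries and 21.9 ± 2.17 TPM in Control libraries.

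Calcoco1, a receptor described for autophagy of the endoplasmic reticulum, was higher in all 3 treatments. It had 153, 155 and 155 TPM in DTPA libraries, 121, 122 and 126 TPM in DFO libraries, 130.3, 139 and 135 TPM in SA libraries, and 109, 108 and 109 TPM in Control libraries. The 4 ranges were apart, with DTPA highest, then SA, then DFO, then Control. The log2 fold changes were 0.50 ± 0.025, 0.18 ± 0.025 and 0.31 ± 0.025 (SE; limma adjusted p = 5.71e-09, 0.00134 and 8.77e-06) for DTPA, DFO and SA. Nbr1, a receptor related to p62, was higher with DTPA (0.18) and was not called with DFO or SA. The ratio of Sqstm1 to Nbr1 was 1.72 to 1.76 in DTPA libraries, 1.45 to 1.499 in DFO libraries, 1.28 to 1.36 in SA libraries and 1.56 to 1.64 in Control libraries, and no group overlapped another. Optn, a receptor for damaged mitochondria and bacteria, was called against Control only after rescaling, higher with DTPA (0.091) and lower with SA (-0.093).

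The mitophagy factors split with DTPA. Pink1, the kinase that marks damaged mitochondria, had 146, 148 and 134 TPM in DTPA libraries, 101, 103 and 98.9 TPM in DFO libraries, 107, 112 and 114 TPM in SA libraries, and 94.9, 95.5 and 96.3 TPM in Control libraries. All treated libraries lay above all Control libraries, and the DTPA range was apart from the others. The log2 fold change was 0.57 ± 0.037 (SE; limma adjusted p = 7.31e-08) with DTPA, 0.21 (limma adjusted p = 0.00193) with SA and 0.078 with DFO, which was not called. Bnip3l, which encodes NIX, had 434, 430.0 and 442 TPM in DTPA libraries, 569, 560.4 and 578 TPM in DFO libraries, 580.5, 604 and 593 TPM in SA libraries, and 585, 609.5 and 593 TPM in Control libraries. DTPA libraries were below all others, DFO libraries lay just below Control and SA libraries overlapped it. Its log2 fold change was -0.45 ± 0.022 (SE; limma adjusted p = 4.74e-09) with DTPA and -0.0082 (95% interval -0.056 to 0.040) with SA. With DFO it was -0.066, not called as deposited and called after rescaling (-0.12).

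Bnip3l has a near-identical copy, Bnip3l-ps, at 99.2% to 99.3% identity over the aligned bases, and the authors' counting could split reads between them. The copy averaged 99.2 ± 2.65 TPM in DTPA libraries, 129 ± 0.601 TPM in DFO libraries, 126 ± 4.94 TPM in SA libraries and 141 ± 5.42 TPM in Control libraries. Recovered reads on both genes together, scaled to the library's reads (RPM), were 601 ± 9.16 RPM in DTPA libraries, 734 ± 11.6 RPM in DFO libraries, 763 ± 14.6 RPM in SA libraries and 782 ± 23.9 RPM in Control libraries, a ratio of 0.768 between DTPA and Control, so the sum was lower with DTPA as well. Atg4a and Gabarapl2 also have near-identical copies, all of which averaged under 3 TPM in every group. Fundc1, a receptor in the outer mitochondrial membrane, was not called against Control in any treatment. The ratio of Pink1 to Bnip3l was 0.302 to 0.344 in DTPA libraries, 0.171 to 0.183 in DFO libraries, 0.184 to 0.192 in SA libraries and 0.157 to 0.162 in Control libraries.

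Both transcriptional regulators rose with DTPA, where 23.5% of all tested genes did, and neither was called with DFO or SA. Tfeb, a master regulator of lysosomal and autophagy genes, had 5.40, 5.36 and 4.19 TPM in DTPA libraries, 2.81, 2.82 and 2.89 TPM in DFO libraries, 2.62, 2.35 and 2.59 TPM in SA libraries, and 2.58, 2.36 and 2.75 TPM in Control libraries. The DTPA libraries were above all others but spread widely, and the level was low throughout, so this value is the least precise of the members given by library. Its log2 fold change was 0.74 ± 0.098 (SE; limma adjusted p = 3.47e-05). Foxo3, the forkhead factor, had 271, 281 and 272 TPM in DTPA libraries, 233, 221 and 239 TPM in DFO libraries, 232, 245 and 243 TPM in SA libraries, and 226, 232 and 239 TPM in Control libraries. The DTPA range was above the rest, which overlapped, and the log2 fold change was 0.24 ± 0.033 (SE; limma adjusted p = 4.60e-05). TFEB and FOXO3 are both controlled largely through where the protein sits in the cell, which RNA does not show.

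The direct comparisons between treatments ask whether the DTPA differences also held against the other treatments. In DTPA minus DFO, 29 of 39 members were called, 15 higher and 14 lower (25 and 7 after rescaling), against 65.9% of all tested genes (19.6% higher and 46.4% lower, and 3775 and 3806 genes after rescaling). In DTPA minus SA, 27 of 39 were called, 14 higher and 13 lower (24 and 6 after rescaling), against 67.1% of all tested genes (20.1% higher and 47% lower, and 3794 and 3883 genes after rescaling). All 13 members given by library were called in both, in the direction they had in DTPA minus Control. Some of the other calls turned round after rescaling: in DTPA minus DFO, Atg12 (-0.069 as deposited and 0.12 rescaled) and Optn (-0.092 and 0.096) went over to higher, and in DTPA minus SA so did Atg9a (-0.078 and 0.11) and Gabarap (-0.13 and 0.065). For example, Atg2a differed by log2 1.02 ± 0.037 from DFO and 1.05 ± 0.037 from SA, and Ulk1 differed by 0.85 ± 0.036 and 0.88 ± 0.036 (SE; limma adjusted p = 3.89e-10, 3.02e-10, 1.44e-09 and 1.05e-09). Bnip3l differed by -0.39 from DFO and -0.44 from SA, and Sqstm1 by 0.38 and 0.54. The 3 libraries of each group serve in several of these comparisons.

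SA and DFO differed little from each other over these genes. In SA minus DFO, 6 of 39 members were called, 3 higher and 3 lower (4 and 4 after rescaling), against 13.5% of all tested genes (6.3% higher and 7.22% lower, and 777 and 959 genes after rescaling). Calcoco1 (0.13), Pink1 (0.14) and Atg12 (0.093) were higher with SA, and Sqstm1 (-0.16), Gabarapl1 (-0.13) and Optn (-0.086) were lower (limma adjusted p = 0.00642, 0.0353, 0.0232, 0.000414, 0.00738 and 0.0430). The Optn call was lost when any single library of the pair was left out, the Pink1 call when any but SA replicate 1 was, and the Atg12 call when replicate 2 or 3 of DFO or SA was (limma adjusted p up to 0.131, 0.116 and 0.0780). For Ulk1, Atg14 and Atg2a the differences were -0.024 (95% interval -0.10 to 0.055), -0.019 (-0.12 to 0.086) and -0.022 (-0.10 to 0.059).

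**Figure D4:**
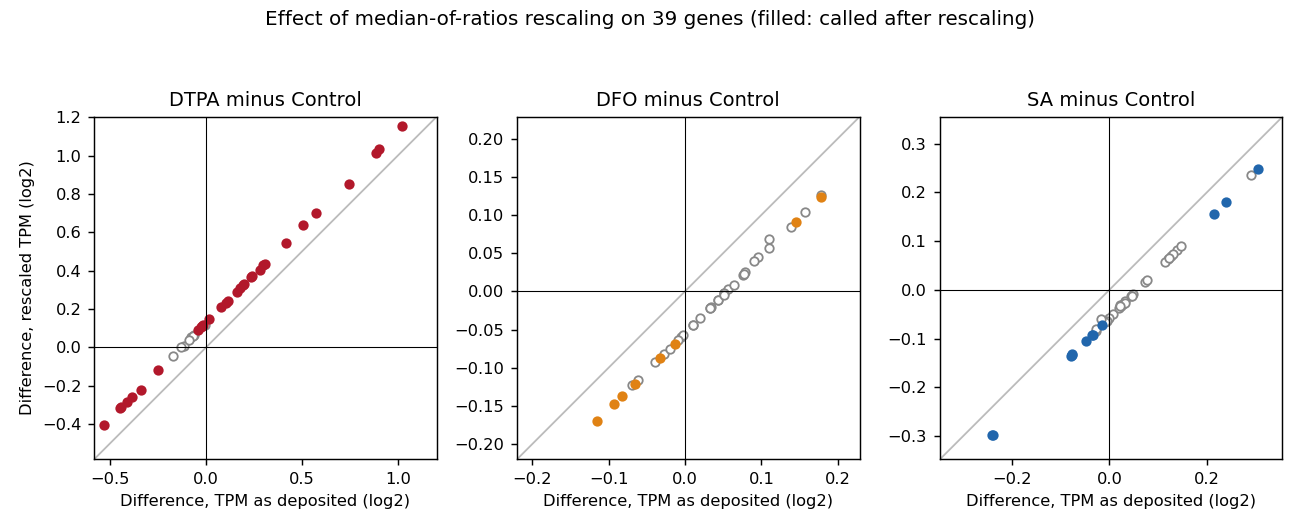
Difference from Control of the 39 tested members on the deposited TPM scale (horizontal, log2) against that after median-of-ratios rescaling (vertical, log2), for each treatment; the grey diagonal marks equal values and filled points were called after rescaling. DTPA points sit above the diagonal and DFO and SA points below it, and 24 of 31 filled DTPA points are above 0.

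Other genes of the pathway came from 5 lists chosen by name, with 63 tested genes. The lists were chosen with earlier results of these data known. The shares called below therefore do not test whether these genes responded more than others. DTPA moved 16 up and 35 down (28 and 23 after rescaling), or 81% of them, against 65.5% of all tested genes (23.5% higher and 42.1% lower). DFO moved 10 up and 2 down (4 and 4 after rescaling), or 19%, against 10.7%, and SA moved 17 up and 9 down (9 and 16), or 41.3%, against 22.2%. The smaller counts below have the same background of 23.5% higher and 42.1% lower with DTPA as deposited. After rescaling that background is 3842 higher and 3859 lower of 11917 tested genes. Nothing particular to a list was tested. Among 11 other early autophagy genes, DTPA raised 3 and lowered 6 (4 and 3 after rescaling). Wdr45, a lipid-binding relative of the WIPI proteins, averaged 28.0 ± 1.56 TPM in DTPA libraries and 15.4 ± 0.292 TPM in Control libraries (log2 0.82), and Nrbf2, a subunit of the ATG14 complex, rose by log2 0.38. Tmem41b, a lipid scramblase needed for membrane growth, fell by 0.75, and Rubcn, which encodes the UVRAG-binding inhibitor Rubicon, fell by 0.45. Rubcn rose with DFO (0.20) and SA (0.22). With SA, Wdr45 was also called higher and Tmem41b lower on both scales (0.19 and -0.25 after rescaling). Neither was called with DFO on either scale.

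Among 13 other receptor and mitophagy genes, DTPA raised 8 and lowered 3 (10 and 3 after rescaling), and the largest change was in Bnip3, the paralog of Bnip3l and a mitophagy receptor. Bnip3 averaged 43.5 ± 2.27 TPM in DTPA libraries, 212 ± 28.8 TPM in DFO libraries, 173 ± 20.5 TPM in SA libraries and 253 ± 31.5 TPM in Control libraries. The log2 fold change was -2.51 ± 0.11 (SE; limma adjusted p = 2.70e-09) with DTPA and -0.55 (limma adjusted p = 0.00516) with SA, and the DFO difference of -0.26 was not called. Tollip, a ubiquitin-binding adaptor, fell by 0.70 and Fkbp8, a mitochondrial receptor, by 0.33 with DTPA, and Sec62, a receptor for the endoplasmic reticulum, rose by 0.34. Among 14 genes for fusion with lysosomes, DTPA raised 2 and lowered 8 (6 and 6 after rescaling). Vamp8, a SNARE of late endosomes and lysosomes, averaged 332 ± 3.99 TPM in DTPA libraries, 518 ± 11.3 TPM in DFO libraries, 555 ± 7.30 TPM in SA libraries and 510.3 ± 4.49 TPM in Control libraries (log2 -0.62 with DTPA). The SNAREs Ykt6 and Stx17 fell by 0.39 and 0.32 and the small GTPase Rab7 by 0.35 with DTPA.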

How the data were processed

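Strand-specific mRNA libraries of 12 cultures were sequenced, as the protocols in the labels describe. The submitters' processing notes list HISAT2 2.1.0, Trimmomatic 0.33, featureCounts, FastQC and edgeR, and build mm10; no source used here gives their settings or the annotation release. The authors deposited TPM values, 1 table per library. When multiplied by GENCODE M21 exon length, 98.8% to 99.0% of values up to 200 reads came out as whole reads within 0.1 read, which gave the depth.

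Genes reaching 1 TPM in 3 or more libraries (11917) were fitted as log2(TPM + 1), with limma 3.58.1 (R 4.3.3), all 12 libraries, 1 mean per group and a mean-variance trend. The Benjamini-Hochberg adjustment covered all of these genes, with 0.05 as the threshold. The fit was tested on simulated data. Members and lists were chosen with earlier results of these data known. Given by library are members called against Control with an absolute log2 fold change of at least 0.5, plus Ulk1, Map1lc3b, Gabarapl2, Sqstm1, Bnip3l, Foxo3 and Tfeb; of each other list, up to 4 called genes with the largest changes and at least 5 TPM. Libraries of 1 group differed by more than sampling noise. RefSeq start regions and GENCODE M21 are on the build of the files. Python 3.11.15, pandas 2.3.3 and matplotlib 3.10.9 were used. Alternatives were other pseudocounts, filters, scalings and fits, the replicate block, each library left out and, chosen after seeing the data, voom on recovered reads (10 reads or more in 3 libraries).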

Additional observations from a re-analysis of the deposited data

How the results depend on the processing

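Counts of called genes and members stayed within 1.5 times of those reported under every alternative run except the following. In DFO minus Control, a fit of only the 6 libraries compared called 802 genes and 2 members. In the same comparison voom on recovered reads, chosen after seeing the data, called 10 of 39 members, against 1437 of 11421 tested genes. In SA minus Control voom called 15 of 39 members, against 3173 of 11421 tested genes. The cause was not tested. Leaving out 1 library at a time gave 840 to 960 genes and 3 to 5 members in DFO minus Control. There each DFO library moved the gene count by over 1.5 times, and 3 members were left without DFO replicate 1 or Control replicate 3. In SA minus DFO, leaving out 1 library gave 1134 to 1207 genes and 3 to 5 members, with 3 left without DFO replicate 2 or SA replicate 2. In DTPA minus Control the ranges were 7415 to 7494 genes and 25 to 27 members, and in SA minus Control 2039 to 2217 genes and 7 to 11 members. Direction turned for Gabarap (0.0015 with median-of-ratios and 0.0068 with trimmed-mean scaling) and Atg9a (0.053 and 0.058, and 0.049 with voom) in DTPA minus Control, where scaling shifted the median of all genes. Neither was called with median-of-ratios scaling, but in direct comparisons that scaling turned called falls into called rises for Atg12 (0.12) and Optn (0.096) in DTPA minus DFO and for Atg9a (0.11) and Gabarap (0.065) in DTPA minus SA. Same-numbered replicates did not deviate together (correlations of -0.043 to 0.054 over 18 pairs). With the replicate number as a block, 28, 5 and 9 members were called for DTPA, DFO and SA minus Control (7746, 1058 and 2432 genes), and 4 in SA minus DFO (1407 genes). The call of Map1lc3b with DFO and those of Optn and Pink1 in SA minus DFO were lost. Depth limited Tfeb and Atg4c most.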

Other observations

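Of 18 tested nutrient signalling genes upstream of autophagy, DTPA lowered 14 and raised 1 (8 and 4 after median-of-ratios rescaling), against 3 raised and none lowered with DFO (1 and 2 after rescaling) and 4 raised and 3 lowered with SA (2 and 7). Over all tested genes as deposited, 23.5% were higher and 42.1% lower with DTPA, 8.39% higher and 2.28% lower with DFO, and 15.4% higher and 6.75% lower with SA. After rescaling, 3842 were higher and 3859 lower with DTPA, 423 and 646 with DFO, and 1124 and 1624 with SA, of 11917. The difference between treatments over this list was not tested. With DTPA, Rheb, the GTPase that activates mTORC1, fell by 0.41, and Prkab2 and Prkag1, subunits of the energy sensor AMPK, each fell by 0.39 on the log2(TPM + 1) scale. Sesn2, a leucine sensor that restrains mTORC1 and a target of ATF4, averaged 172 ± 2.41 TPM in SA libraries and 114 ± 2.51 TPM in Control libraries (log2 0.59, limma adjusted p = 6.06e-08), and rose by 0.20 with DFO. With DTPA it fell by 0.17 as deposited, a call that rescaling removed (-0.041).

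Of 7 tested transcription factors of autophagy genes that are not members, Gata1 changed most with DTPA. It averaged 1058 ± 25.5 TPM in DTPA libraries, 2230.3 ± 35.4 TPM in DFO libraries, 2126 ± 58.2 TPM in SA libraries and 2501 ± 68.6 TPM in Control libraries, with log2 fold changes of -1.24, -0.16 and -0.23 (limma adjusted p = 5.60e-12, 0.00330 and 0.000116). These reads can come from the introduced fusion as well as from the cells' own gene. Tfe3, a relative of Tfeb, averaged 114 ± 4.29 TPM in DTPA libraries and 152 ± 4.43 TPM in Control libraries (log2 -0.41), whereas Tfeb rose. Ddit3 and Atf4, of the integrated stress response, were higher with SA (log2 0.72 and 0.58) and with DFO (0.27 and 0.28). With DTPA Ddit3 was higher by 0.055, and Atf4 was called only after rescaling (0.15).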
